A study of Homo sapiens with 6 samples.

Results

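The genes examined here build, crosslink, contract and take apart the actin cytoskeleton, together with the transcription factor SRF and LIM-domain proteins tied to it. They are 47 genes listed by symbol, with earlier results of these data known, of 58884 genes in the deposited table, and all 47 were expressed enough to be tested, among 16098 genes tested in all. They were measured by RNA sequencing in DBTRG, an established human glioblastoma cell line that the labels give as wild type. The cells had been kept for 5 days in soft gel, a 3D culture, or on a rigid dish, a 2D culture, with 3 libraries per group. The soft culture was also the 3D one and the rigid culture the 2D one, so softness and the third dimension cannot be told apart. The labels give neither the gel material nor a stiffness. They also do not say whether the libraries of a group came from separate cultures, so p-values speak of the spread among these 6 libraries alone, and that spread may be technical.

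Actin exists as monomers and as filaments, and myosin II pulls on filaments that are crosslinked by filamins and alpha-actinins. Free monomers hold the coactivators MRTFA and MRTFB in the cytoplasm. When formins draw monomers into filaments, the coactivators enter the nucleus and switch on SRF, which binds a DNA element called the CArG box near many actin and myosin genes. SRF also works with ELK factors at immediate early genes such as FOS and EGR1. In glioma cells, actomyosin contraction is known to serve migration and the sensing of stiffness.

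Most of these genes were lower in soft gel. By edgeR's quasi-likelihood test, 31 of the 47 members fell (66%), 1 rose and 15 did not pass the threshold of an adjusted p below 0.05, where 13.2% of all genes tested fell and 15.4% rose. Levels of the groups did not overlap for 35 members, where 44.6% of all genes tested did not, with 34 of them lower in soft gel (21.1% of all genes tested) and 1 higher (23.5%). The median log2 fold change, soft gel over rigid dish, was -0.59 for the members and 0.05 for all genes tested. Abundant genes as a whole leaned the same way. Of the 2183 genes with a mean of 100 CPM or more (counts scaled to library size), 33.1% fell, with a median of -0.21. Among the 33 members at that level, 24 fell (72.7%), with a median of -0.59. In a pool of cells, fewer cells that express a gene and less of its RNA per cell cannot be told apart.

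Falls were of moderate size. Only MICAL2, FHL3, PDLIM1, TAGLN2 and CNN2 passed the threshold with a log2 fold change of -1 or less. Leaving out 1 library at a time moved the number of fallen members between 22 and 33, with 22 without soft gel 2, 23 without soft gel 1 and 24 without rigid dish 2. All of the 31 kept a negative fold change in each of 18 alternative analyses, and 21 kept their call in all 18.

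**Figure D1:**
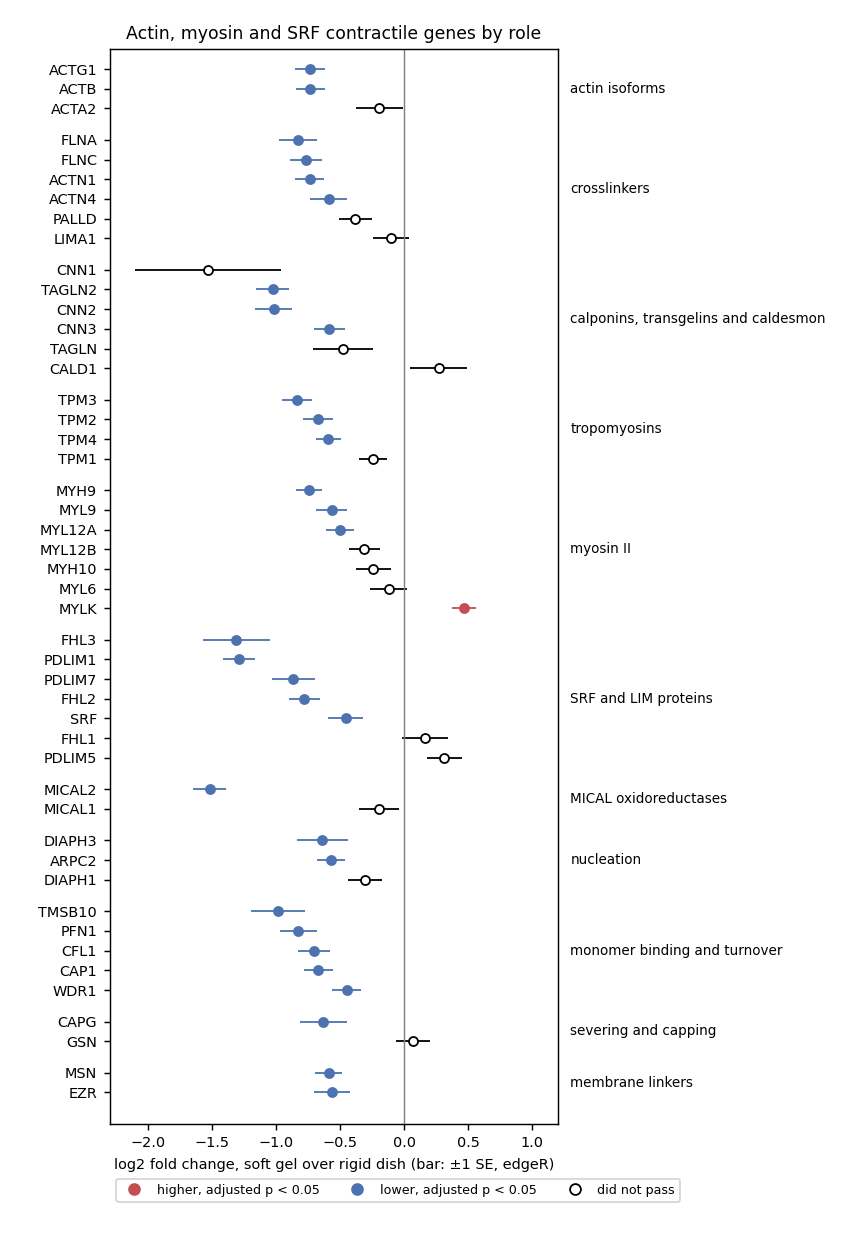
Log2 fold change, soft gel over rigid dish, of each of the 47 members, grouped by role, with bars of 1 standard error (edgeR, n = 3 libraries per group). Filled blue points are the 31 members that fell, the filled red point is MYLK, which rose, and open points are the 15 that did not pass; the fallen ones lie between -0.45 and -1.52.

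Libraries held 20911363 to 25901499 counts. A principal component analysis placed soft gel and rigid dish apart on its first axis (59.2% of variance), and on its second axis (17.3%) rigid dish 1 (45.95) stood away from the other rigid dish libraries (-4.498 and -24.82). Rigid dish 1 was the lowest of the rigid dish libraries for 33 of the 47 members. Its log2 level minus the mean of the other two had a median of -0.24 for the 21 members under 2000 bases long and of -0.05 for the 14 of 4000 bases or more, against -0.12 and 0.11 for all genes in these classes. Without rigid dish 1, 33 members fell and 1 rose. Soft gel 3 stood apart from soft gel 1 and 2 on the first axis (-25.91 against -46.23 and -54.03). It did so on the second axis too (-23.38 against 6.315 and 0.4336). Soft gel 3 was the highest of the soft gel libraries for 29 of the 47 members. Without it, 31 members fell and 2 rose. Cell identity was checked with fixed marker genes. The glioma markers VIM (2618 CPM in soft gel, 3657 CPM on the rigid dish) and CD44 (3257 CPM in soft gel, 2595 CPM on the rigid dish) were abundant and SOX2 was present (93.7 CPM in soft gel, 62.2 CPM on the rigid dish). The astrocyte gene GFAP was near 0 (0.843 TPM in soft gel, 0.67 TPM on the rigid dish) and OLIG2 was listed at 0 in all libraries.

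CArG boxes were looked up in the promoters of the members, because this is the element that SRF binds. RefSeq promoters (GRCh38.p14) ran from 250 bases before to 50 bases after 1 listed start per gene. They were matched for 44 members, all except ACTB, TAGLN and MYL9. A complete CArG box lay in 7 of the 44 (15.9%), against 454 of all 35116 promoters (1.29%). Members were counted with 1 promoter each, the background with every listed promoter. The members were listed partly as SRF-linked genes, so these shares are not a test of enrichment. The box reads alike on both strands, so 1 strand was searched, and no other motif was searched. Of the 7 genes with a box, 6 fell and MYLK rose, with a median log2 fold change of -0.73. Of the 37 without one, 23 fell, with a median of -0.59. The MYLK window lay deep inside the gene, so its box is not shown to serve the transcript that encodes the full kinase. A match describes letters in this window and is neither a bound site nor a cause. The stretches around the boxes are shown because they are the members' promoters that hold the element, each 5′ to 3′ on the gene's own strand with the CArG box in capitals:
ACTG1: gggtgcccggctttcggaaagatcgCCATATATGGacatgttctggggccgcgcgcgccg
FLNA: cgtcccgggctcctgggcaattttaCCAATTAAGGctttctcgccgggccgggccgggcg
CNN2: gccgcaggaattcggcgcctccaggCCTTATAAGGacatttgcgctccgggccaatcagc
TPM4: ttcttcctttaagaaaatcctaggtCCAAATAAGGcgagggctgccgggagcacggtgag
MYLK: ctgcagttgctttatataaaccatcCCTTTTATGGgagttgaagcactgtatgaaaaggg
SRF: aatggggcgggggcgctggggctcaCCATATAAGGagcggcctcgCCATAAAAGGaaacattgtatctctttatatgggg
FHL2: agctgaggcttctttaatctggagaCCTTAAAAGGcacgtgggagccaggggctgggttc
They lie at chr17:81512859-81512918 (minus strand) for ACTG1, chrX:154374694-154374753 (minus strand) for FLNA, chr19:1026494-1026553 (plus strand) for CNN2, chr19:16067340-16067399 (plus strand) for TPM4, chr3:123620608-123620667 (minus strand) for MYLK, chr6:43171214-43171293 (plus strand) for SRF and chr2:105438580-105438639 (minus strand) for FHL2. The box began 94 bases before the listed start in ACTG1, FLNA and MYLK, 89 in CNN2, 101 in FHL2 and 173 in TPM4. SRF held a pair, at 30 and 10 bases. For MYLK, ACTG1 and TPM4 that start lay inside the annotated gene (123610049 to 123884331, 81509971 to 81523847 and 16067021 to 16103005), not at its outer end.

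Cytoplasmic actin, the substrate of the whole system, fell in both of its forms. ACTB (ENSG00000075624, hg38 chromosome 7, 5527147 to 5563784, minus strand), which encodes beta-actin, had 4246, 3707 and 4257 CPM in soft gel, against 6385, 6816 and 7089 CPM on the rigid dish. Every soft gel library lay below every rigid dish library, and the log2 fold change was -0.73 (SE 0.111, edgeR adjusted p = 0.0027). ACTG1 (ENSG00000184009, chromosome 17, 81509971 to 81523847, minus strand), for gamma-actin, had 2662, 2360 and 2804 CPM in soft gel, against 3943, 4434 and 4639 CPM on the rigid dish. It fell by the same amount (-0.73, SE 0.118, edgeR adjusted p = 0.00334), again without overlap. ACTA2, the smooth muscle alpha-actin that marks contractile cells such as myofibroblasts, was scarce in both groups, at 15.6, 15.1 and 11.9 CPM in soft gel, against 19.4, 13.3 and 16.1 CPM on the rigid dish. Its groups overlapped and it did not pass (-0.19, SE 0.182, edgeR adjusted p = 0.44). ACTA2 shares its locus with the opposite-strand genes FAS and STAMBPL1, which had 167% and 121% of its counts, and no strand setting is stated, so its level is uncertain.

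Crosslinkers that bundle filaments or join them into networks fell in 4 of 6 cases. FLNA (ENSG00000196924, chromosome X, 154348524 to 154374638, minus strand), for filamin A, which joins filaments at angles, had 2718, 2693 and 3181 CPM in soft gel, against 4138, 5328 and 5827 CPM on the rigid dish. Its groups stood apart (log2 fold change -0.83, SE 0.147, edgeR adjusted p = 0.00474). FLNC, the filamin best known from striated muscle, had 173, 158 and 178 CPM in soft gel, against 255, 281 and 331 CPM on the rigid dish, also without overlap (-0.77, SE 0.124, edgeR adjusted p = 0.00343). The alpha-actinins ACTN1 (228 ± 16.8 CPM in soft gel against 380 ± 33.6 CPM on the rigid dish, ± SD of 3 libraries each) and ACTN4 (1405 ± 61.4 CPM in soft gel against 2116 ± 394 CPM on the rigid dish) had log2 fold changes of -0.74 and -0.59, and both fell. The call of ACTN4 (edgeR adjusted p = 0.0168) was lost without soft gel 1 (0.075), soft gel 2 (0.0697) or rigid dish 2 (0.0616), within a range of 8.94e-05 to 0.075 over the alternatives. PALLD, for the scaffold palladin, did not overlap but did not pass (-0.38, edgeR adjusted p = 0.0527), and LIMA1 (-0.10) overlapped. PALLD passed as lower in 6 of 18 alternatives, where its adjusted p ran from 0.00752 to 0.323.

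Among the proteins that sit along filaments, 3 calponin and transgelin genes found in many cell types fell. TAGLN2 (ENSG00000158710, chromosome 1, 159918107 to 159925732, minus strand), for transgelin-2, had 325, 291 and 363 CPM in soft gel, against 593, 684 and 720 CPM on the rigid dish. No library of one group reached the other (log2 fold change -1.03, SE 0.126, edgeR adjusted p = 0.00115). CNN2 (ENSG00000064666, chromosome 19, 1026581 to 1039068, plus strand), for calponin 2, behaved alike, with 228, 202 and 268 CPM in soft gel, against 414, 460 and 540 CPM on the rigid dish (-1.02, SE 0.144, edgeR adjusted p = 0.00206). CNN3, for the acidic calponin, fell by less (152 ± 8.26 CPM in soft gel against 228 ± 28.6 CPM on the rigid dish, log2 fold change -0.58, edgeR adjusted p = 0.00873), a call that limma did not make on log2(TPM + 1) (adjusted p = 0.111, the highest of its alternatives, the lowest being 9.86e-05).

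The smooth muscle forms were near the floor of the data. TAGLN, or SM22-alpha, had 2.96, 2.76 and 3.28 CPM in soft gel, against 4.42, 3.23 and 4.88 CPM on the rigid dish, with overlap (-0.48, SE 0.233, edgeR adjusted p = 0.148). It lies opposite PCSK7, which had 1334% of its counts, so that without a known strand its level is uncertain. CNN1, for calponin 1, had 0.288, 1.06 and 0.938 CPM in soft gel, against 0.861, 3.23 and 2.55 CPM on the rigid dish. Its log2 fold change of -1.53 (SE 0.571) was the most negative of the members, but rigid dish 1 lay within the soft gel range and it did not pass (edgeR adjusted p = 0.0701). Without rigid dish 1 it passed (adjusted p = 0.0108), and over the alternatives the adjusted p ran from 0.000609 to 0.236. CALD1, for caldesmon, which blocks myosin from actin, leaned the other way at 183, 198 and 103 CPM in soft gel, against 150, 134 and 117 CPM on the rigid dish (0.27, edgeR adjusted p = 0.378). Soft gel 3 was its lowest library of all, and without it CALD1 passed as higher (0.45, adjusted p = 0.0364, range 0.0364 to 0.815).

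**Figure D2:**
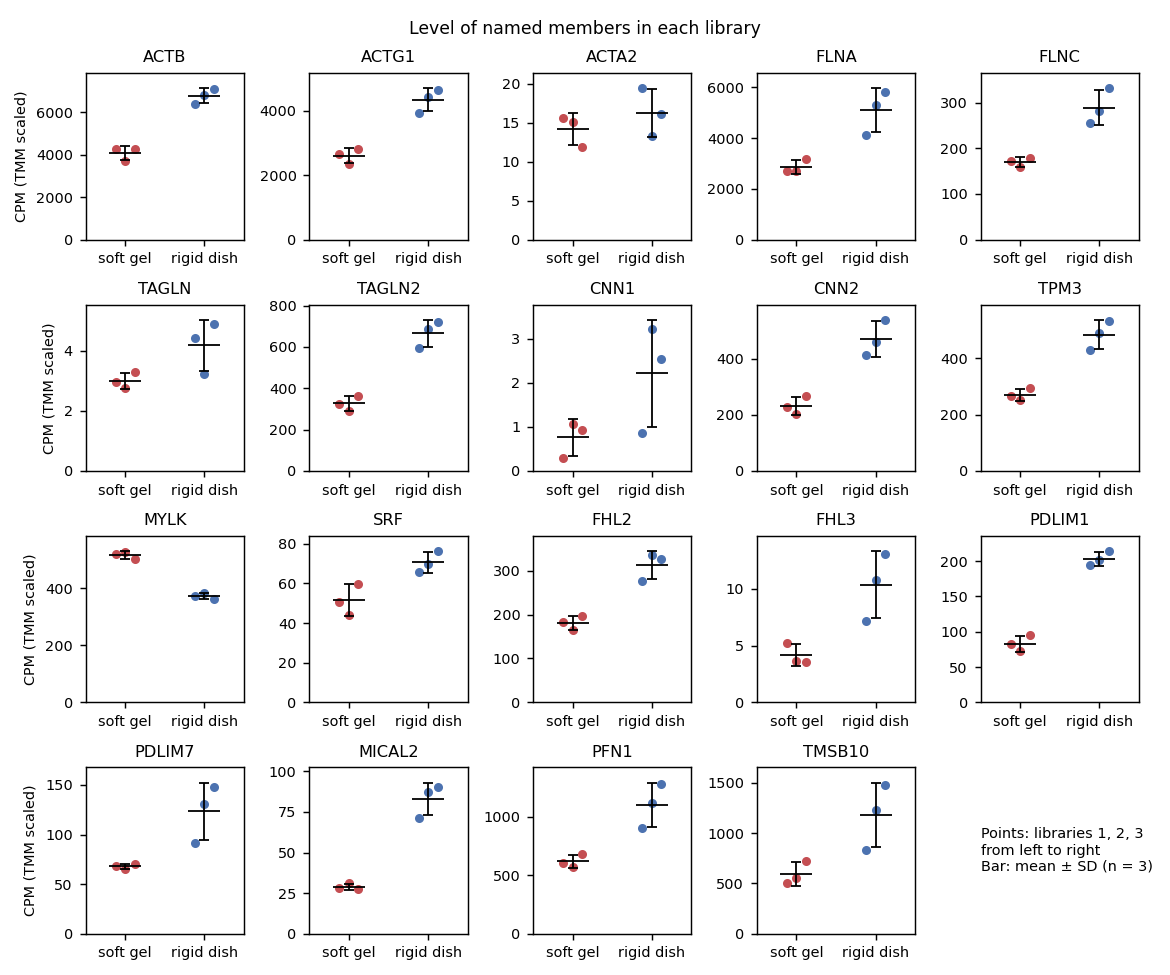
Level in CPM, on axes from 0, of 19 members in each library, with soft gel (red) left of rigid dish (blue); points are libraries and bars are mean ± SD (n = 3 each). ACTB, ACTG1, FLNA, FLNC, TAGLN2, CNN2, TPM3, SRF, FHL2, FHL3, PDLIM1, PDLIM7, MICAL2, PFN1 and TMSB10 are lower in every soft gel library, MYLK is higher in every one, and ACTA2, TAGLN and CNN1 overlap.

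Tropomyosins, coiled coils that run along filaments and set which myosins and severing proteins reach them, fell in 3 of 4 genes. TPM3 had 266, 252 and 293 CPM in soft gel, against 428, 488 and 533 CPM on the rigid dish (log2 fold change -0.84, SE 0.12, edgeR adjusted p = 0.00211). TPM2 (log2 fold change -0.67) and TPM4 (-0.59) fell, TPM4 with very even libraries (424 ± 17.7 CPM in soft gel against 640 ± 4.61 CPM on the rigid dish, ± SD of 3 libraries each). TPM1 lay lower in all soft gel libraries but did not pass (244 ± 22 CPM in soft gel against 289 ± 7.16 CPM on the rigid dish, -0.24, edgeR adjusted p = 0.113). Its share of the summed TPM (a level per length, scaled to the library) of the 4 tropomyosins was 21.8%, 25.9% and 21.5% in soft gel, against 19.8%, 18.9% and 17.8% on the rigid dish. That was the largest possible separation of 3 against 3 libraries, for which an exact permutation test cannot go below p = 0.1 (two-sided, adjusted p = 0.325 over 13 shares).

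Myosin II, the motor of contraction, was the only role with a member that rose. The heavy chain MYH9 fell with tight libraries, at 1937, 1819 and 2023 CPM in soft gel, against 3068, 3253 and 3348 CPM on the rigid dish (-0.74, edgeR adjusted p = 0.00201). MYH10, the other nonmuscle heavy chain, was 78.2 ± 8.24 CPM in soft gel against 92.3 ± 13.4 CPM on the rigid dish (± SD of 3 libraries each) and did not pass (-0.24, adjusted p = 0.209). The regulatory light chains MYL9 (-0.57) and MYL12A (-0.50) fell, and MYL12B (-0.31, edgeR adjusted p = 0.0821) did not pass, although its groups did not overlap. Without rigid dish 1, MYL12B passed (adjusted p = 0.0106, range 0.0106 to 0.286). The edgeR adjusted p of MYL9 was 0.0101, and 0.0537, the highest of its alternatives, without soft gel 2 (lowest 0.000272). For MYL12A it was 0.0102, with 0.0502 without soft gel 1, 0.0556 without soft gel 2 and 0.0596 without rigid dish 2 (lowest 0.000274). The essential light chain MYL6 was as abundant in soft gel as on the rigid dish within its spread (2499 ± 139 TPM in soft gel against 2547 ± 267 TPM on the rigid dish) and did not pass (-0.12, edgeR adjusted p = 0.548).

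MYLK (ENSG00000065534, chromosome 3, 123610049 to 123884331, minus strand) encodes the kinase that phosphorylates the regulatory light chains and so turns myosin II on. It had 521, 527 and 501 CPM in soft gel, against 374, 383 and 363 CPM on the rigid dish. The libraries of each group were close together, and the groups lay apart. It rose 1.38-fold (log2 0.47, SE 0.0966, edgeR adjusted p = 0.00874). The call missed the threshold without soft gel 1 (adjusted p = 0.0512) or rigid dish 3 (0.0519), over a range of 0.000716 to 0.0519, while the fold change stayed positive in every alternative, from 0.34 to 0.62.

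SRF and the LIM proteins that dock on actin or on SRF held some of the strongest falls, in 5 of 7 genes. SRF itself (ENSG00000112658, chromosome 6, 43171299 to 43181507, plus strand) had 50.7, 44.0 and 59.9 CPM in soft gel, against 65.9, 70.0 and 76.3 CPM on the rigid dish. The groups did not overlap and SRF fell modestly (-0.46, SE 0.136, edgeR adjusted p = 0.0342). This call was lost in 6 of 18 alternatives, over a range of 0.00582 to 0.132. They included the fits without soft gel 1 (adjusted p = 0.116), soft gel 2 (0.132), rigid dish 2 (0.101) or rigid dish 3 (0.0629). With all libraries kept, it was lost by limma on log2(TPM + 1) (0.128) and log2(TPM + 0.1) (0.125). The log2 fold change of SRF was -0.47 without rigid dish 2 and without rigid dish 3. FHL2, a LIM-only coregulator that binds SRF, had 183, 165 and 197 CPM in soft gel, against 276, 335 and 327 CPM on the rigid dish. It fell without overlap (-0.78, SE 0.121, edgeR adjusted p = 0.0029). FHL3 had 5.27, 3.65 and 3.57 CPM in soft gel, against 7.22, 10.8 and 13.1 CPM on the rigid dish, a larger fall at a low level (-1.31, SE 0.261, edgeR adjusted p = 0.00748). FHL1 of the same family, at 34.6 ± 4.52 CPM in soft gel against 31.0 ± 6.64 CPM on the rigid dish, overlapped (0.16, edgeR adjusted p = 0.515).

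Among the PDZ and LIM proteins, which bind alpha-actinin, PDLIM1 (ENSG00000107438, chromosome 10, 95237572 to 95291024, minus strand) had 82.1, 72.3 and 94.9 CPM in soft gel, against 194, 201 and 214 CPM on the rigid dish. Its level in the rigid dish libraries was 2.45 times that in soft gel, with no overlap (-1.29, SE 0.125, edgeR adjusted p = 0.00043). PDLIM7, or enigma, had 68.5, 64.9 and 70.2 CPM in soft gel, against 91.8, 131 and 148 CPM on the rigid dish, where rigid dish 1 was the library nearest to soft gel (-0.87, SE 0.168, edgeR adjusted p = 0.00676). PDLIM5 overlapped and did not pass (86.0 ± 11.5 CPM in soft gel against 69.1 ± 6.68 CPM on the rigid dish, 0.31, edgeR adjusted p = 0.105).

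MICAL2 (ENSG00000133816, chromosome 11, 12094008 to 12359144, plus strand) had the largest change of any member that passed. The MICAL enzymes oxidise actin and so destabilise filaments, and MICAL2 is known to act on nuclear actin and to raise MRTF and SRF activity. Its level was 28.0, 31.0 and 27.8 CPM in soft gel, against 71.5, 87.4 and 90.1 CPM on the rigid dish. The highest soft gel library was far below the lowest rigid dish library, and the level was 2.87 times as high on the rigid dish (-1.52, SE 0.128, edgeR adjusted p = 0.000264). MICAL1 was at 38.9 ± 2.91 CPM in soft gel against 44.5 ± 8.74 CPM on the rigid dish and did not pass (-0.20, edgeR adjusted p = 0.369), except without rigid dish 1 (0.0418, range 0.0418 to 0.628).

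Filament nucleation fell in 2 of 3 members. ARPC2, a core subunit of the Arp2/3 complex that starts branched filaments, was at 193 ± 11.7 CPM in soft gel against 287 ± 20.3 CPM on the rigid dish (-0.57, edgeR adjusted p = 0.00601). The formin DIAPH1, which elongates straight filaments, overlapped between groups (173 ± 25.3 CPM in soft gel against 214 ± 17.0 CPM on the rigid dish, -0.31, edgeR adjusted p = 0.103) and passed only without soft gel 3 (0.0224, range 0.0224 to 0.537). DIAPH3 fell (12 ± 0.775 CPM in soft gel against 18.7 ± 5.24 CPM on the rigid dish, -0.64, edgeR adjusted p = 0.0412), but rigid dish 1 was high for it, and without that library the log2 fold change was -0.40 (adjusted p = 0.063). Its call was lost in 10 of 18 alternatives, over a range of 0.00179 to 0.272. These were the fit without that library, the fits without soft gel 1 (0.102), soft gel 2 (0.117), soft gel 3 (0.0619) or rigid dish 2 (0.0828), upper quartile factors (0.0528), limma-voom (0.0549), protein-coding genes only (0.0505), log2(TPM + 1) (0.272) and log2(TPM + 0.1) (0.27).

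Proteins that bind monomers and turn filaments over fell in all 5 members. PFN1, profilin, which feeds monomers to growing ends, had 605, 573 and 681 CPM in soft gel, against 904, 1118 and 1281 CPM on the rigid dish (-0.83, SE 0.144, edgeR adjusted p = 0.00444). TMSB10, thymosin beta-10, which holds monomers in reserve, had 506, 553 and 727 CPM in soft gel, against 835, 1228 and 1474 CPM on the rigid dish. No group reached the other, although both spread widely (-0.99, SE 0.212, edgeR adjusted p = 0.0103), and the call was lost without soft gel 1 (0.0512) or soft gel 2 (0.0564), over a range of 4.99e-11 to 0.0564. CFL1, cofilin, which severs filaments, had a log2 fold change of -0.71 (edgeR adjusted p = 0.00529), CAP1, which recycles monomers from cofilin, of -0.67 (0.00392), and WDR1, which helps cofilin, of -0.45 (0.0205). The fall of WDR1 did not pass without soft gel 1 (0.0846), soft gel 2 (0.0916) or rigid dish 2 (0.0862), over a range of 0.00217 to 0.0916.

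Of the proteins that cap or cut filament ends, CAPG fell (46.3 ± 5.60 CPM in soft gel against 71.8 ± 17.9 CPM on the rigid dish, -0.63, edgeR adjusted p = 0.032). Its call was lost without soft gel 1 (0.122), soft gel 2 (0.107), rigid dish 2 (0.0976) or rigid dish 3 (0.0641), over a range of 9.55e-05 to 0.122. Gelsolin, GSN, was at 342 ± 43.1 CPM in soft gel against 327 ± 36.1 CPM on the rigid dish, with overlap (0.07, edgeR adjusted p = 0.734). The linkers of actin to the plasma membrane both fell, ezrin (EZR) at -0.56 (edgeR adjusted p = 0.0189) and moesin (MSN) at -0.59 (0.00491). EZR missed the threshold without soft gel 1 (0.0704), soft gel 2 (0.0738) or rigid dish 2 (0.0709), over a range of 0.000263 to 0.0738, whereas MSN kept its call throughout.

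Levels per length showed how much of the messenger pool these genes took. Summed over the 47 members, the deposited TPM values were 23821, 21665 and 24249 in soft gel, against 34060, 36097 and 37414 on the rigid dish. That was 2.35% ± 0.14 of all TPM in soft gel and 3.63% ± 0.175 on the rigid dish (± SD of 3 libraries each), a ratio of 0.648, or 0.662 with ACTB and ACTG1 set aside. The most abundant members per length were TMSB10 (4112 ± 557 TPM in soft gel against 7692 ± 1896 TPM on the rigid dish), ACTG1 (3921 ± 196 TPM in soft gel against 6337 ± 329 TPM on the rigid dish) and ACTB (3695 ± 298 TPM in soft gel against 5911 ± 394 TPM on the rigid dish), whose soft gel levels did not differ beyond their spread. CNN1 was the least abundant (1.15 ± 0.798 TPM in soft gel against 2.53 ± 1.28 TPM on the rigid dish). By role, the ratio of summed TPM (soft gel over rigid dish) was lowest for monomer binding and turnover (0.576), calponins, transgelins and caldesmon (0.578) and SRF and LIM proteins (0.598). Myosin II (0.907) and severing and capping (0.924) came closest to 1, and much of their sums was MYL6 and GSN.

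**Figure D3:**
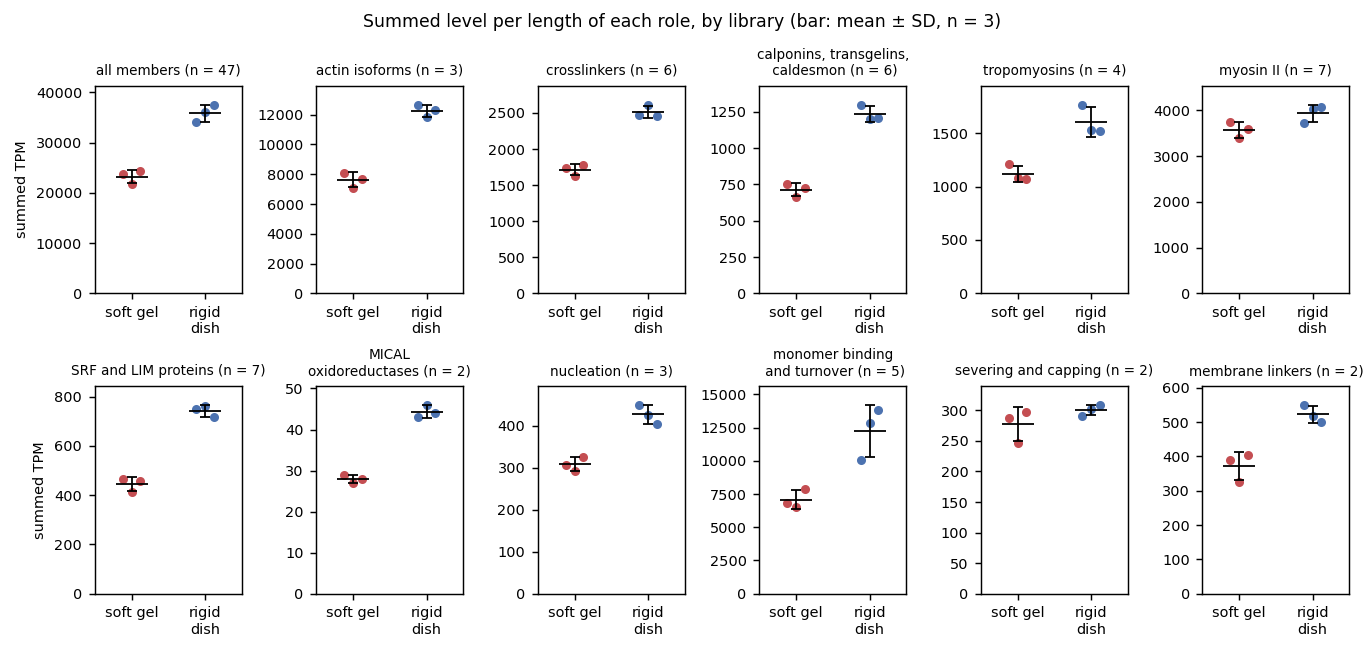
Summed TPM, a level per length, of all 47 members and of each role in each library, on axes from 0, with soft gel (red) left of rigid dish (blue) and bars of mean ± SD (n = 3 each). All members together were at 21665 to 24249 TPM in soft gel and at 34060 to 37414 TPM on the rigid dish; the groups lie closest for myosin II and for severing and capping.

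Shares within families asked whether one form replaced another. Of 13 shares of TPM, the groups separated for TPM1 (above) and for ACTN1. The latter made up 14.0%, 14.0% and 14.9% of alpha-actinin TPM in soft gel, against 17.3%, 16.1% and 17.0% on the rigid dish (exact permutation p = 0.1, the smallest possible, adjusted p = 0.325). In shares of counts, the ACTN1 groups overlapped. Rigid dish 3 (9026 counts of ACTN1, 55272 of ACTN4) had a lower share there than soft gel 3 (5245 and 31382). Gamma-actin took 51.4% ± 0.773 of cytoplasmic and smooth muscle actin in soft gel and 51.7% ± 2.44 on the rigid dish, and ACTA2 took 0.209% ± 0.0463 in soft gel and 0.144% ± 0.0362 on the rigid dish. MYH10 was 4.44% ± 0.773 of the 2 heavy chains in soft gel and 3.02% ± 0.555 on the rigid dish, with overlap (exact permutation p = 0.2). CNN2 held 58.9% ± 3.02 of calponin TPM in soft gel and 65.7% ± 5.85 on the rigid dish, and CNN3 held 40.7% ± 3.00 in soft gel and 33.8% ± 6.08 on the rigid dish (± SD of 3 libraries each, exact permutation p = 0.2 for both). With 3 libraries a group, none of these shares could pass a threshold of 0.05.

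**Figure D4:**
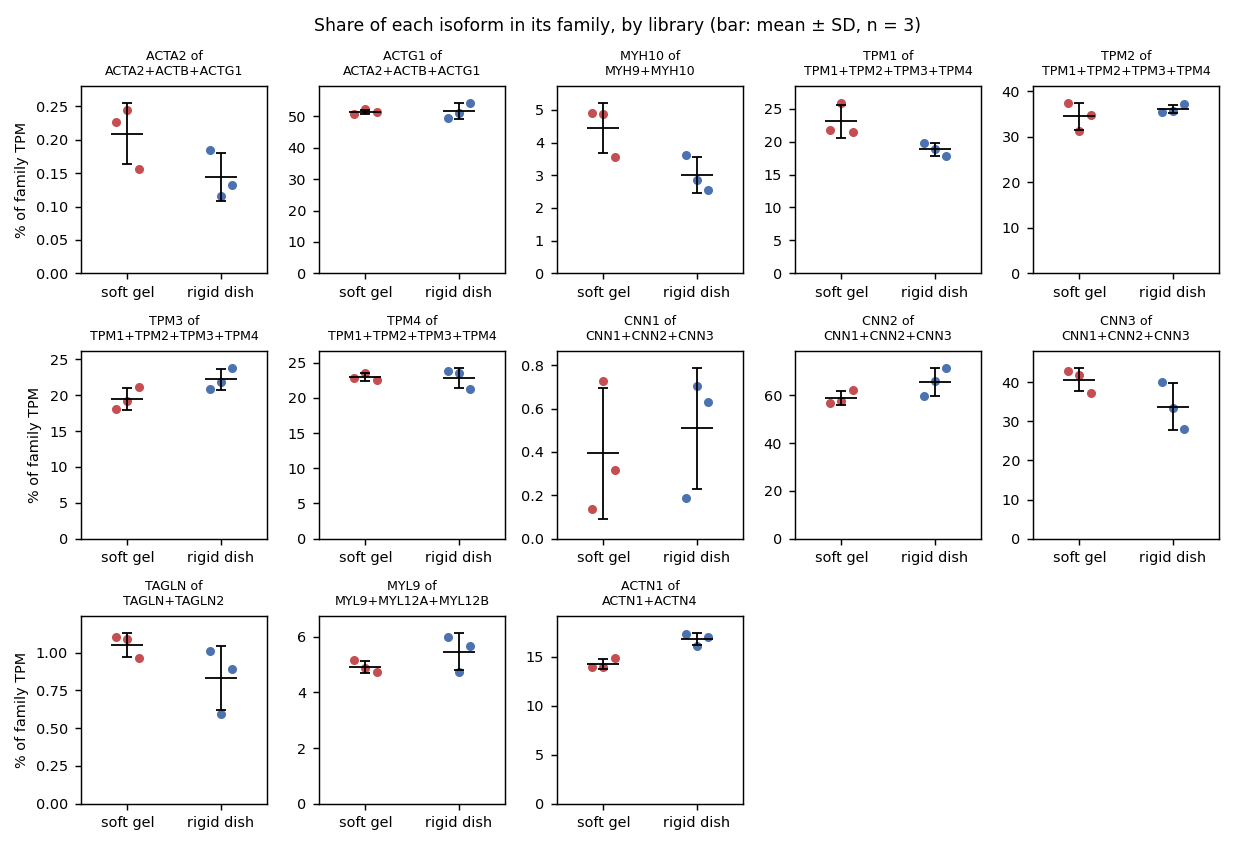
Share of each form in the summed TPM of its family, in percent per library on axes from 0, with soft gel (red) left of rigid dish (blue) and bars of mean ± SD (n = 3 each). Only TPM1, higher in soft gel at 23.1%, and ACTN1, lower in soft gel at 14.3%, show groups that do not overlap.

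Of the coactivators of SRF, MRTFA fell (56.0, 47.7 and 55.1 CPM in soft gel, against 71.5, 72.5 and 74.2 CPM on the rigid dish, -0.46, edgeR adjusted p = 0.0159), and MRTFB did not pass (27.0 ± 5.05 CPM in soft gel against 26.3 ± 3.17 CPM on the rigid dish, 0.04, adjusted p = 0.879). The call of MRTFA was lost without soft gel 1 (0.052), soft gel 2 (0.0734) or rigid dish 2 (0.0695), and on log2(TPM + 1) its change was -0.28 (adjusted p = 0.293, the highest of its alternatives, the lowest being 0.00165). LIMK2, which inactivates cofilin, rose (116 ± 5.36 CPM in soft gel against 59.8 ± 3.50 CPM on the rigid dish, 0.95), as did PPP1CB (0.72), the catalytic subunit of the phosphatase that acts on myosin light chains. ARHGEF2, a guanine nucleotide exchange factor that binds microtubules, fell (-1.45). It overlapped between groups, because rigid dish 1 (52.0 CPM) was within the soft gel range while rigid dish 2 and 3 held 213 and 234 CPM. Its call (edgeR adjusted p = 0.0434) was lost in 8 of 18 alternatives, over a range of 3.87e-21 to 0.167. They included the fits without soft gel 1 (0.141), soft gel 2 (0.134), rigid dish 2 (0.131) or rigid dish 3 (0.0994). With all libraries kept, it was lost with DESeq2 (0.0656), limma-voom (0.108) and limma on log2(TPM + 1) (0.167) or log2(TPM + 0.1) (0.163).

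Of all genes tested, 13.2% fell and 15.4% rose, and of those with a mean of 100 CPM or more 33.1% fell. Of 8 other Arp2/3 subunits, 3 fell (37.5%), with a median of -0.41. They were ARPC1B at -0.53, ARPC4 at -0.53 and ARPC1A, the last named after its value was seen. All 3 calls were lost without soft gel 1, soft gel 2 or rigid dish 2. Among 9 activators of the complex, WASF2 (-0.85) and CYFIP1 (-0.40) fell (22.2%) and NCKAP1 (0.47) rose, all of them parts of the WAVE complex. Leaving out soft gel 1, soft gel 2 or rigid dish 2 ended the calls of CYFIP1 (highest adjusted p 0.118 over the alternatives) and NCKAP1 (0.209), and rigid dish 3 that of NCKAP1 too. The 11 other formins divided, with FMNL2 (475 ± 74.7 CPM in soft gel against 265 ± 19.5 CPM on the rigid dish, 0.84), FMN1 (0.66) and FMN2 risen, and FMNL3 (-0.66), FHOD3 (-0.60), FMNL1 and INF2 fallen. The fallen formins were 36.4% of this list. FMN2, FMNL1 and INF2 were named after their values were seen. FMN1 did not pass without soft gel 1, soft gel 2, rigid dish 2 or rigid dish 3 (0.0847 to 0.11 in these fits, and up to 0.139 over the alternatives). The numbers fallen were 2 without soft gel 1 or soft gel 2.

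Close relatives outside the members gave a mixed picture. Of 24 tested genes, 7 fell (29.2%), against 13.2% of all genes tested and 33.1% of those with a mean of 100 CPM or more. A further 3 rose (CAP2, TAGLN3 and, named after its value was seen, CAPZA2), where 15.4% of all genes tested rose, and the median was -0.16. PDLIM2 fell (-0.81). CAP2 rose (58.2 ± 8.92 CPM in soft gel against 32.0 ± 1.89 CPM on the rigid dish, 0.86, edgeR adjusted p = 0.00329) where its relative CAP1 fell, and the neuronal transgelin TAGLN3 rose (0.64) where TAGLN2 fell. TMSB4X, named after its values were seen, is the other abundant beta-thymosin and did not pass (2202, 2003 and 2637 CPM in soft gel, against 2194, 2671 and 2500 CPM on the rigid dish, -0.11, edgeR adjusted p = 0.575), whereas TMSB10 fell. These differences between relatives were not tested as such. The fallen relatives numbered 1 without soft gel 1 or soft gel 2 and 3 without rigid dish 2. PDLIM2 (edgeR adjusted p = 0.0109) was lost without soft gel 1 (0.0502) or soft gel 2 (0.0584), and TAGLN3 (0.0418) without soft gel 1 (0.157), soft gel 3 (0.129), rigid dish 2 (0.154) or rigid dish 3 (0.0984), with highest values of 0.0584 and 0.157 over the alternatives.

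Some immediate early genes, which SRF serves with ELK factors, were higher in soft gel, where most contractile members were lower. Of 8 tested, 4 rose, where 15.4% of all genes tested rose, and the median log2 fold change was 0.76. The rest of the list did not pass and pointed both ways, with EGR2 at 0.90, NR4A1 at 0.26, IER2 at -0.18 and MCL1 at -0.32. MCL1 was lower in every soft gel library than in any rigid dish library (edgeR adjusted p = 0.0528). FOS had 133, 75.3 and 107 CPM in soft gel, against 1.16, 1.77 and 2.06 CPM on the rigid dish, and FOSB had 62.9, 35.8 and 63.4 CPM in soft gel, against 1.05, 0.775 and 0.627 CPM on the rigid dish. Both rose far beyond their spread (log2 fold change 5.99 and 6.02, edgeR adjusted p = 1.38e-05 and 1.48e-05). EGR1 and JUNB, named after their values were seen, rose by 2.03 (44.7 ± 10.9 CPM in soft gel against 11 ± 2.50 CPM on the rigid dish) and by 0.61 (36.0 ± 4.60 CPM in soft gel against 23.6 ± 3.44 CPM on the rigid dish). The call of JUNB (edgeR adjusted p = 0.0192) was lost without soft gel 1 (0.0873), soft gel 3 (0.0544) or rigid dish 2 (0.0621), over a range of 0.00561 to 0.0873. SRF itself also belongs to this class of genes and fell.

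**Figure D5:**
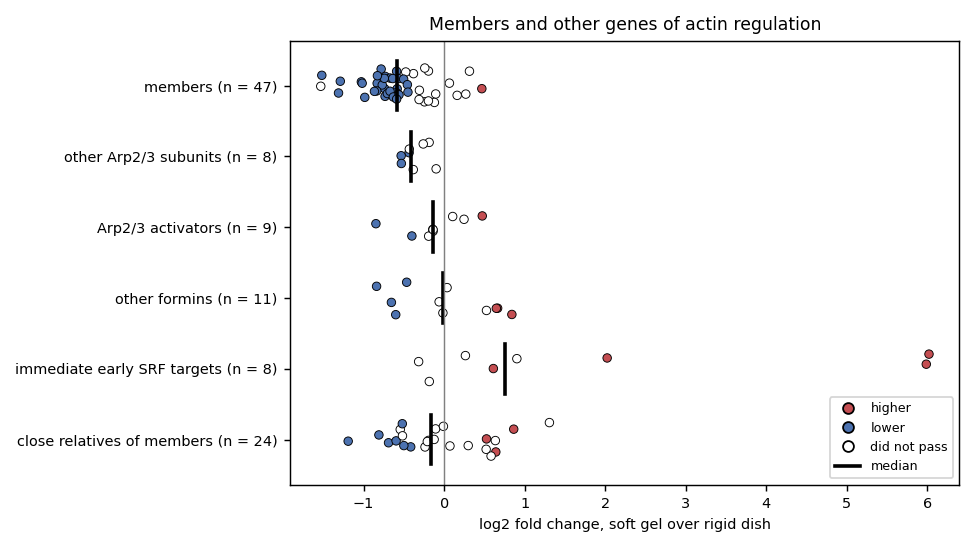
Log2 fold change, soft gel over rigid dish, of tested genes in the 47 members and in 5 lists of related genes, each point a gene and each black bar the median of its list. The members have a median of -0.59 and the immediate early genes one of 0.76, with FOS and FOSB near 6; the other lists have medians between -0.41 and -0.02.

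Markers of contractile cell types were sparse. The 7 smooth muscle markers summed to 16.4 to 25.7 TPM in soft gel and 22.5 to 38.9 TPM on the rigid dish, most of it SMTN, with the defining factor MYOCD at 0 in all libraries. MYH11, SMTN and SYNPO2 were tested without passing, at edgeR adjusted p = 0.185, 0.0541 and 0.666. The 6 striated muscle markers summed to at most 0.57 TPM in any library, with MYOD1, MYOG and CKM at 0. Pericyte markers summed to 2.02 to 3.26 TPM in soft gel and 1.45 to 5.33 TPM on the rigid dish. Of the 3 pericyte markers tested, PDGFRB, a growth factor receptor, fell as the members did (2.39, 3.00 and 2.06 CPM in soft gel, against 3.52, 4.44 and 5.91 CPM on the rigid dish, -0.89, edgeR adjusted p = 0.035). Its call was lost without any 1 library other than rigid dish 1 and on both TPM scales (up to 0.304 over the alternatives). Endothelial markers summed to 0.78 to 1.94 TPM in soft gel and 0.33 to 1.12 TPM on the rigid dish. Neuron markers summed to 4.69 to 8.14 TPM in soft gel and 8.07 to 10.7 TPM on the rigid dish, and oligodendrocyte markers, nearly all MBP, to 34.4 to 43.6 TPM in soft gel and 31.5 to 40.6 TPM on the rigid dish. Immune markers summed to 36.3 to 44.7 TPM in soft gel and 9.21 to 12.7 TPM on the rigid dish. Nearly all of that was CD68, a lysosomal protein of macrophages and other cells (41.1 ± 3.82 CPM in soft gel against 12 ± 2.54 CPM on the rigid dish). Both immune markers tested rose, CD68 (1.78, edgeR adjusted p = 0.000419) and the leukocyte integrin ITGAM at a low level (0.906, 1.26 and 0.891 CPM in soft gel, against 0.299, 0.0862 and 0.134 CPM on the rigid dish, 2.49, edgeR adjusted p = 0.00841). ITGAM did not pass on log2(TPM + 1) (0.313, the highest of its alternatives) or log2(TPM + 0.1) (0.212). The other 3 were too low to test. PTPRC was at 0.133 TPM in soft gel and 0.123 TPM on the rigid dish, CD14 at 0.33 TPM in soft gel and 0.22 TPM on the rigid dish, and AIF1 at 1.37, 0.44 and 0.16 TPM in soft gel and listed at 0 on the rigid dish. ITGAM and PDGFRB were named after their values were seen. Of the glioma markers, SOX2 (0.59) and CD44 (0.33) rose and NES (-0.56) and VIM (-0.48) fell. The calls of NES and VIM were lost without soft gel 1, soft gel 2 or rigid dish 2 (adjusted p up to 0.0893 and 0.0781 over the alternatives), and that of CD44 without any 1 library other than rigid dish 1 (up to 0.202). The part of these markers in the members' result was not tested.

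The authors' deposited table compared the same groups. It marked 950 of 29386 genes as significant, with absolute log2 fold changes of 1 or more. In the authors' deposited table, 6 members were marked, all lower in soft gel (TAGLN2, CNN1, CNN2, FHL3, PDLIM1 and MICAL2), where 0.875% of its genes were marked as lower. At an adjusted p below 0.05 in the authors' deposited table, 35 members were lower (9.26% of its genes) and MYLK was higher, with a log2 fold change of 0.40. That table thus included CNN1 (adjusted p = 0.0248), which edgeR did not pass.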

How the data were processed

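Per the labels' protocols, RNA extraction used TRIzol and library preparation a TruSeq RNA kit. HISAT2, HTSeq and the build hg38 stand in the submitters' processing notes, without roles or versions. The deposited estimated counts hold decimals in some genes, and the quantifier is not named for them. TPM values were deposited beside them. Per the file headers, the authors' own comparison gives a linear ratio, its log2 and a p-value with its adjustment.

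The 47 members and the gene lists were chosen with earlier results of these data known. Counts were rounded, filtered with filterByExpr (minimum count 10), scaled by TMM and tested with edgeR 4.0.16 (limma 3.58.1, R 4.3.3), adjusting by Benjamini-Hochberg over all 16098 genes tested. Fold changes set soft gel over rigid dish, and standard errors (SE) come from the test statistic. Library totals of 20911363 to 25901499 counts make counting error small for all but the scarcest members. Shares within families used deposited TPM and an exact two-sided permutation test (scipy 1.17.1).

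Values in every library are given for the 12 members that passed with the largest change, every member that rose, and ACTA2, ACTB, ACTG1, TAGLN, CNN1 and SRF, and from each list up to 2 risen and 2 fallen genes of 5 CPM or more, MRTFA and MRTFB are named. Alternatives were other scalings (DESeq2 size factors, upper quartile), other filters (none, or 1 CPM in 3 libraries), a replicate block, other tests (DESeq2 1.42.0, limma with voom weights, limma on TPM with a pseudocount of 1 or 0.1), only protein-coding genes (biotypes and positions from GENCODE 29), no mitochondrially encoded genes, each library left out, and, chosen after seeing the data, a removed length trend. The code was tested on simulated data.

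Named pseudogenes exist for 18 members, with over 1% of the member's counts only for TPM3. Overlapping genes with over 1% of a member's counts exist for 9 members (ACTA2, PALLD, TAGLN, MYH10, MYL6, MICAL1, CFL1, CAP1 and GSN), whose levels are less certain because no strand setting is stated. Some results on related genes are not reported here.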

Additional observations from a re-analysis of the deposited data

How the results depend on the processing

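Of the 32 members that passed, 21 kept their call and direction in all 18 alternatives, and none of the 32 changed direction in any of them. The number fallen was 31 and ran from 27 on log2(TPM + 0.1) to 35 with DESeq2, and from 22 to 33 on leaving out 1 library. The number risen was 1, against 2 with the replicate block and 0 to 2 on leaving out 1 library. Whether replicate numbers pair the libraries is not stated and stays unsettled. Deviations of same-numbered libraries correlated at 0.217, 0.00912 and 0.307. Soft gel 1 and soft gel 3 correlated best with their own number, and soft gel 2 with rigid dish 1 (0.137). With the block, 33 members fell, and among all genes 3499 rose and 2943 fell. PDLIM5 (adjusted p = 0.0276, range over its alternatives 0.0276 to 0.547) was the second member to rise, and PALLD and CNN1 passed as lower.

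Among all genes, 2480 rose and 2123 fell. On log2(TPM + 1) these were 1345 and 968, on log2(TPM + 0.1) 1327 and 960, and on leaving out 1 library 1006 to 3239 and 797 to 2925. DESeq2 size factors gave 2268 risen and 2447 fallen, and upper quartile factors 2716 and 1885. The median of all genes lay between -0.01 and 0.13 and that of the members between -0.50 and -0.68 in every setting. FOSB rose by 3.97 on log2(TPM + 1), its smallest change.

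The members and MRTFB whose log2 fold change turned had not passed. On leaving out 1 library, LIMA1 ran from -0.2527 to 0.0115 and FHL1 from -0.0100 to 0.2831, both turning without rigid dish 1, and GSN ran from -0.0713 (without soft gel 3) to 0.1622, turning also without rigid dish 1 (-0.0297). MRTFB turned with DESeq2 size factors or DESeq2 (-0.0074), without a filter (-0.0276), without soft gel 1 (-0.0059), soft gel 2 (-0.0768) or rigid dish 3 (-0.0992), and without the length trend (-0.1796). In the same way, the difference in share, in percentage points, ran from -1.35 to 1.06 for ACTG1, from -0.656 to 0.645 for TPM4 and from -0.281 to 0.0137 for CNN1. It turned for ACTG1 without soft gel 1 (0.0836) or rigid dish 3, for TPM4 without soft gel 2 (-0.118) or rigid dish 3, and for CNN1 without soft gel 1. The causes were not tested.

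CNN1 rested on 7 to 75 counts per library, and all tests on 3 libraries per group.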
